A study of Mus musculus with 153 samples.

Results

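The receptor genes for noradrenaline and adrenaline, dopamine, serotonin, acetylcholine and histamine were followed in the dorsal hippocampus of mice after contextual fear conditioning. They were taken by gene symbol: the alpha and beta adrenergic receptors (Adra1, Adra2 and Adrb), the dopamine receptors (Drd1 to Drd5), the serotonin receptors (Htr1 to Htr7), the muscarinic receptors (Chrm1 to Chrm5), the nicotinic acetylcholine receptor subunits (Chrna, Chrnb, Chrnd, Chrne, Chrng) and the histamine receptors (Hrh1 to Hrh4). This gave 53 genes out of 24391 listed in 5 of the 6 count tables, with 16 nicotinic, 14 serotonin, 9 adrenergic, 5 muscarinic, 5 dopamine and 4 histamine genes. The table of the Camk2a line at 15 min listed 23366 genes and 52 of the receptor genes, without Drd1. None of the 53 was chosen by its measured level.

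The animals carried a Cre driver and a Cre-dependent ribosome tag, written Camk2a.Cre/TRAPfl, Pvalb.Cre/TRAPfl and Sst.Cre/TRAPfl in the labels, so that tagged ribosomes are made where the Camk2a, Pvalb or Sst driver is or has been active. Camk2a marks excitatory pyramidal and granule neurons, Pvalb marks fast-spiking interneurons, and Sst marks dendrite-targeting interneurons. Within each line and time set there were conditioned mice that received a foot shock in a new context (called shock here), Box control mice placed in that context without a shock, and Home cage mice that stayed in theirs. Each animal group was sequenced as a purified ribosome-bound fraction and as a total lysate of the dorsal hippocampus, in sets of 15 min and 60 min after the training. The groups held 3 to 6 libraries, which the submitters call biological replicates, and the labels give no age or sex.

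Apart from the nicotinic receptors and the Htr3 genes, which form ion channels opened by the transmitter, these genes encode G protein-coupled receptors. Dopamine D1-type, beta adrenergic and several serotonin receptors couple to Gs and raise cAMP. The muscarinic M1, M3 and M5, alpha1 adrenergic, histamine H1 and serotonin 5-HT2 receptors couple to Gq, and muscarinic M2 and M4, alpha2 adrenergic, D2-type, H3 and 5-HT1 receptors couple to Gi and Go. Septal cholinergic axons, noradrenergic axons of the locus coeruleus, raphe serotonin axons and hypothalamic histamine axons reach the hippocampus, where these transmitters act on memory formation. Pyramidal cells are known for their muscarinic M1 receptors, and dendrite-targeting interneurons of the stratum oriens for the nicotinic alpha2 subunit.

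The series holds 151 libraries in 36 groups, with total counts between 9043042 and 397228206. Purified libraries of the Camk2a and Pvalb lines carried their own cell class: the own-class score, the mean log2 level of the class's markers minus that of other classes, set against the lysates of the same table, averaged 3.77 to 4.63 per group in the Camk2a line and 3.63 to 4.58 in the Pvalb line. In the Sst line 9 of 25 purified libraries scored under 1, namely box replicate 2 and shock replicates 3, 4 and 5 at 15 min, and home cage replicate 3 and shock replicates 1, 2, 3 and 4 at 60 min. The 15 min shock group averaged 0.30, against 4.55 in home cage, with replicate 2 at 1.09 and replicate 1 at 4.86. These shock libraries enter each Sst shock response at 15 min and its comparison with 60 min. The Sst transcript itself lay at 2.98 to 155 CPM in the 60 min shock libraries, at 1081 to 4958 CPM in box libraries and at 242 to 3535 CPM in home cage libraries. So the Sst shock libraries at 60 min lack the enrichment that their label names, and every Sst value below is to be read with this. In the same set box replicate 1 and home cage replicates 4 and 5 held 264109341 to 397228206 counts in both fractions, the only libraries above 250000000 and none of them shock, and results that move without these 3 pairs of deep libraries are also given without them, an alternative added after seeing the data. Since each line has a table of its own, differences between lines and between tables cannot be told apart, and in such bulk samples fewer cells of a kind and less RNA per cell cannot be told apart either.

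Chrm1, the gene of the muscarinic M1 receptor, was the leading receptor gene of the Camk2a line and of the Sst line, while Hrh3, the gene of the histamine H3 autoreceptor and heteroreceptor, led in the Pvalb line. Levels between genes are given as counts scaled to the library's total and to the exon length (CPM per kb), averaged over all purified libraries of a line and set. In the Camk2a line Chrm1 stood at 32.3 ± 10.2 CPM per kb at 15 min (SD, n = 10) and 59.9 ± 11.8 at 60 min (SD, n = 12), well above every other receptor gene. The next were Htr5b, a serotonin receptor of the 5-HT5 class, at 10.8 ± 5.09 CPM per kb, and Hrh3 at 10 ± 8.90, both at 15 min. At 60 min the next were Adra2c, the alpha2C adrenergic receptor, at 13.2 ± 3.47 CPM per kb and Adra1d, the alpha1D adrenergic receptor, at 11.3 ± 2.64. These runners-up do not differ from each other beyond their spread.

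In the Pvalb line Hrh3 stood at 41.8 ± 21.2 CPM per kb at 15 min (SD, n = 13) and 28.0 ± 13.1 at 60 min (SD, n = 16). Chrm1 followed at 14.1 ± 6.57 CPM per kb at 15 min and 14.3 ± 5.17 at 60 min. Next came Adra2c with 12.2 ± 10.8 CPM per kb at 15 min and Htr5b with 7.06 ± 3.65 at 60 min, of which Adra2c lay within its spread of Chrm1 and Htr5b lay below Chrm1 by more than either SD. The Pvalb lysates at 15 min also held more Hrh3, at 22.9 ± 14.8 CPM per kb (SD, n = 12). Lysates of that set held 9.1 ± 5.6 in the Camk2a line and 9.1 ± 1.6 in the Sst line. The part of this tissue level in the purified Hrh3 values was not tested. Chrm1 of the Sst line stood at 19.5 ± 10.3 CPM per kb at 15 min (SD, n = 12) and 34.6 ± 12.8 at 60 min (SD, n = 13), followed by Hrh3 at 14.8 ± 11.8 and 25.5 ± 9.42. After them came Adra2c with 6.34 ± 4.09 CPM per kb at 15 min and 15.0 ± 7.71 at 60 min. The order of Chrm1 and Hrh3 in the Sst line is within the spread of the libraries.

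**Figure D1:**
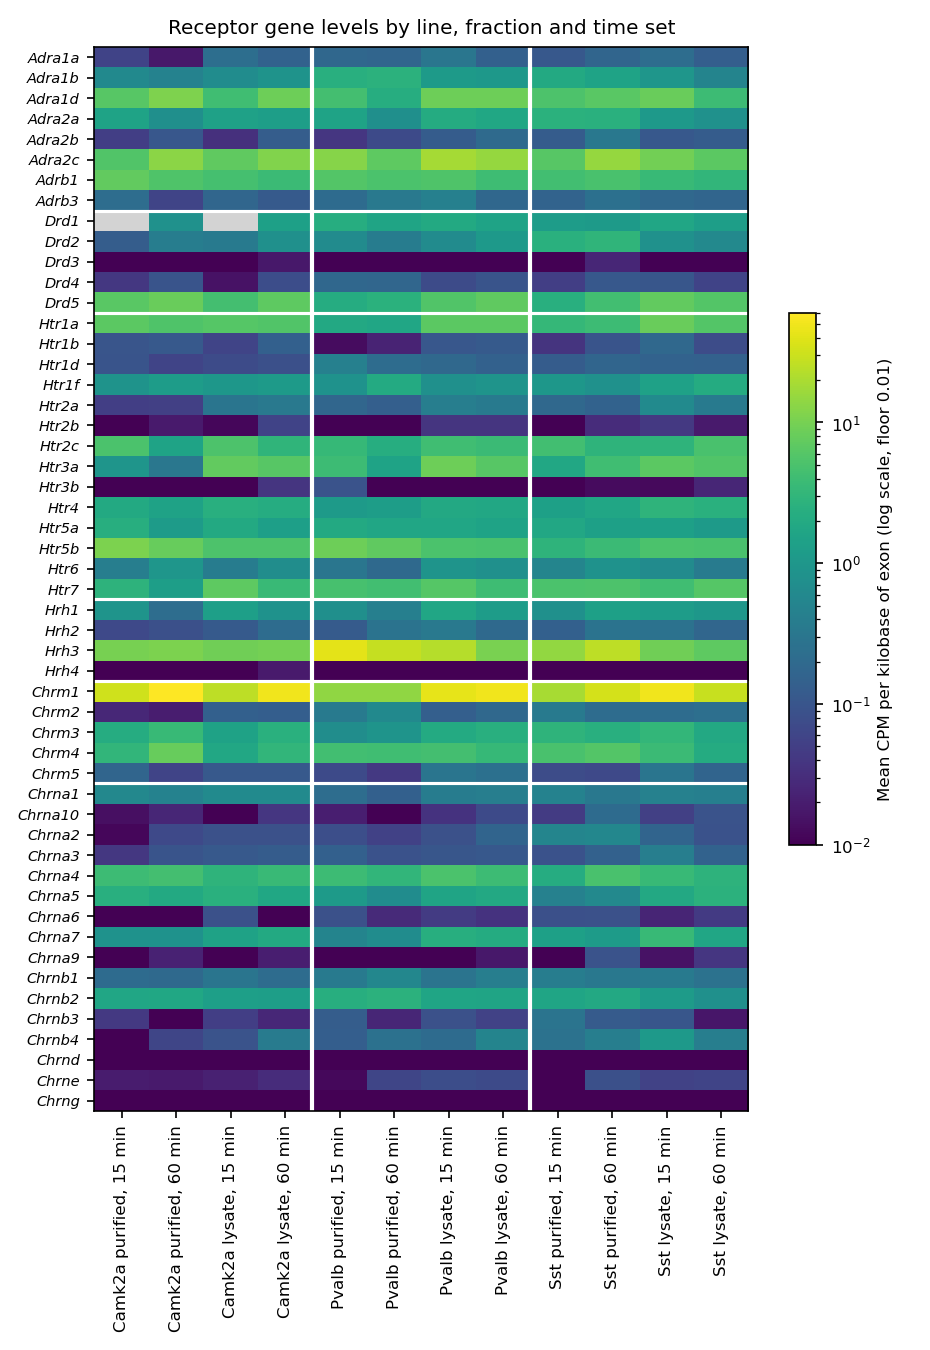
Mean level of 52 of the 53 receptor genes, in CPM per kilobase of exon on a log colour scale with a floor of 0.01, over the purified and lysate libraries of each line and time set; rows are grouped into adrenergic, dopamine, serotonin, histamine, muscarinic and nicotinic genes, and grey marks Drd1, which the Camk2a 15 min table does not list. Chrm1 is the brightest row of the Camk2a line, with a mean of 59.9 at 60 min, and Hrh3 is the brightest of the purified Pvalb line, with 41.8 at 15 min and 28.0 at 60 min.

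In the other 4 families the leading gene changed with the line or the set, except among the nicotinic genes. Chrna4, the alpha4 subunit that assembles with beta2 into the main nicotinic receptor of the brain, led the nicotinic genes in all 3 lines, at 3.94 and 4.51 CPM per kb in the Camk2a line, 3.92 and 3.11 in the Pvalb line and 2.18 and 4.93 in the Sst line (15 and 60 min). The leading serotonin gene was Htr5b in the Camk2a and Pvalb lines and Htr7, the Gs-coupled 5-HT7 receptor, in the Sst line with 5.16 and 5.35 CPM per kb. Among dopamine genes Drd5, the Gs-coupled D5 receptor, led the Camk2a line with 6.49 and 8.11 CPM per kb. The leading dopamine gene of the Sst line at 15 min was instead Drd2, the Gi-coupled D2 receptor, at 2.53 CPM per kb, and in the Pvalb line at 15 min it was Drd1, the Gs-coupled D1 receptor, at 2.25. At 60 min Drd5 led in the Pvalb line with 2.63 CPM per kb and in the Sst line with 4.27. In the Camk2a line at 15 min the leading adrenergic gene was Adrb1, the beta1 receptor, with 7.35 CPM per kb.

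Much of the family was near the floor of detection. At a mean of 1 CPM or more, purified libraries held 24 receptor genes at 15 min and 26 at 60 min in the Camk2a line, 29 and 30 in the Pvalb line, and 33 and 34 in the Sst line. There were 13 genes that reached this mean in no line, set or fraction: Drd3 and Drd4, Chrm5, Hrh4, Htr1b, Htr2b, Htr3b, and the nicotinic genes Chrna6, Chrna9, Chrna10, Chrnd, Chrne and Chrng. Among them Htr1b came closest, with a highest mean of 0.900 CPM. Chrnd, Chrne and Chrng encode subunits of the muscle receptor, and 22 receptor genes were at or above 1 CPM in every line, set and fraction.

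The first comparison asks which receptor messages are on the tagged ribosomes of each line rather than elsewhere in the tissue, as the log2 fold change of the purified fraction over the lysate (edgeR quasi-likelihood test, Benjamini-Hochberg adjustment over all genes, threshold 0.05). In the Camk2a line 11 of 42 tested receptor genes were higher and 7 lower at 15 min, where 22.9% of all genes were called higher and 27.8% lower. At 60 min 10 of 47 were higher and 9 lower, against 22.2% and 35.3% of all genes. In the Pvalb line 7 of 47 were higher and 10 lower at 15 min (21.3% and 24.3% of all genes), and 9 of 47 higher and 17 lower at 60 min (28.0% and 32.4%). The Sst line had 10 of 48 higher and 10 lower at 15 min (23.6% and 21.0% of all genes), and 16 of 47 higher and 9 lower at 60 min (31.2% and 28.2%). The receptor genes' shares of calls lay on both sides of the background, and the lines differed in which genes were called.

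The muscarinic genes divided the lines. Chrm1 was higher in the purified Camk2a fraction by 0.69 ± 0.16 (log2, SE) at 15 min and 0.61 ± 0.10 at 60 min, and lower in the purified Pvalb fraction, at -1.50 ± 0.13 and -1.57 ± 0.10. In the Sst line it was at -1.10 ± 0.19 at 15 min, and its 0.29 ± 0.22 at 60 min did not pass, though 0.66 ± 0.15 did without the deep libraries. That refit leaves out lysates that differ from the others in the slope of level on GC content, as given below. Chrm3, another Gq-coupled muscarinic receptor, was split the same way, with 0.91 and 0.79 in the Camk2a line and -1.36 and -1.16 in the Pvalb line. Chrm2, the Gi-coupled M2 receptor, was the reverse: it was higher in the purified Pvalb fraction by 1.64 ± 0.62 and 1.94 ± 0.30, and in the Camk2a line at 60 min it averaged 0.12 CPM in the purified fraction against 0.813 CPM in the lysate, a called difference. Chrm4, the Gi-coupled M4 receptor, was higher in the Camk2a line by 0.99 ± 0.28 and 1.73 ± 0.22 and in the Sst line by 0.82 and 1.60.

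Among dopamine receptors Drd5 was higher in the purified Camk2a fraction, by 0.93 at 15 min and 0.48 at 60 min, and lower in both interneuron lines at both times, at -1.16 and -1.25 in the Pvalb line and -1.27 and -0.55 in the Sst line. Drd2 was higher in the purified Sst fraction, by 2.08 ± 0.68 at 15 min and 2.38 ± 0.39 at 60 min, where it averaged 6.45 and 7.47 CPM in purified libraries against 2.07 and 1.53 CPM in lysates. The 2 dopamine receptors thus stood on opposite sides in the Sst line. Drd2 was lower in the purified Pvalb fraction at 60 min and did not pass in the Camk2a line.

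Of the adrenergic genes Adrb1 was higher in the purified fraction of every line at both times, from 0.35 in the Pvalb line at 15 min to 1.0 in the Camk2a line at 15 min. Adra1b, a Gq-coupled alpha1 receptor, was higher in both interneuron lines, by 1.33 ± 0.25 and 1.60 ± 0.14 in the Pvalb line and 1.46 ± 0.46 and 1.76 ± 0.31 in the Sst line. Adra2a, the Gi-coupled alpha2A receptor, was higher in the Sst line at both times, by 1.68 ± 0.46 and 1.72 ± 0.31. Adra1d was higher in the Camk2a line and lower in the Pvalb line, and in the Sst line its call turned from -0.70 ± 0.24 at 15 min to 0.80 ± 0.32 at 60 min. Adra1a was lower in the purified Camk2a fraction at both times.

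Among histamine receptors Hrh3 was higher in both interneuron lines, by 1.05 ± 0.28 and 1.60 ± 0.15 in the Pvalb line and 1.17 ± 0.33 and 2.0 ± 0.30 in the Sst line, and did not pass in the Camk2a line. Htr3a, the channel-forming serotonin receptor that marks a further class of interneurons, was lower in 5 of the 6 contrasts, and in the Camk2a line at 60 min it averaged 0.665 CPM in the purified fraction against 12.9 CPM in the lysate. Its value of -0.95 in the Pvalb line at 15 min did not pass. Htr1a, the Gi-coupled 5-HT1A receptor, was lower in both interneuron lines at both times, at -1.63 and -1.66 in the Pvalb line and -0.84 and -0.59 in the Sst line. Htr5b was higher in the Camk2a line by 1.40 ± 0.28 and 0.81 ± 0.19 and in the Pvalb line by 1.08 and 0.78. Htr5a, its close relative, was higher in all 3 lines at 15 min, by 0.58 in the Camk2a line, 0.57 in the Pvalb line and 0.80 in the Sst line, and at 60 min in the Pvalb line (0.45), and Htr1b was lower in the Pvalb line. Htr7 was lower in the Camk2a line at 15 min (-0.93 ± 0.20), Htr4 (-0.76) and Htr2a (-1.20) were lower in the Sst line at 60 min, and Hrh1 was lower in the Camk2a line at 60 min (-2.56 ± 0.63), though at -0.82 ± 0.62 in home cage libraries alone (edgeR adjusted p = 0.352).

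Among nicotinic genes Chrnb2, the beta2 subunit, was higher in the purified fraction of every line at both times, by 0.71 and 0.76 in the Camk2a line, 0.78 and 1.0 in the Pvalb line and 0.96 and 1.40 in the Sst line. Its partner Chrna4 passed at both times in the Camk2a line and at 60 min in the Sst line. Chrna2, the alpha2 subunit, was higher in the purified Sst fraction by 2.08 ± 0.77 and 2.42 ± 0.41, with 1.98 and 2.12 CPM in purified libraries against 0.628 and 0.345 CPM in lysates. Chrna7, the subunit of the homomeric alpha7 receptor, was at -2.08 ± 0.39 and -1.42 ± 0.21 in the Pvalb line and at -0.96 in the Sst line at 15 min. Chrna5, an accessory subunit, was at -2.21 ± 0.30 in the Sst line at 60 min. Htr1f, a Gi-coupled serotonin receptor, was higher in the Pvalb line at 60 min (1.47 ± 0.22) and lower in the Sst line at 60 min (-1.52 ± 0.28).

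Some called genes were near 0. Chrnb4, the beta4 subunit, and Chrna6, an alpha subunit, had no counts in the purified fraction of the Camk2a line at 15 min, against 0.343 and 0.253 CPM in the lysate, and Chrna2 had 0.0448 against 0.332 CPM. At 60 min Chrnb4 was at 0.232 CPM in the purified Camk2a fraction against 1.38 CPM in the lysate (-4.10), but in home cage libraries alone its difference was 0.040 ± 1.61 (edgeR adjusted p = 0.987). Chrnb3, the beta3 subunit, was at 0.00593 CPM in that purified fraction against 0.168 CPM in the lysate. Chrne of the Sst line at 15 min had no counts in the purified fraction, against 0.0931 CPM in the lysate.

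Some of these calls did not hold in home cage libraries alone, which are fewer. There 64 of the reported calls between fractions still passed, 49 missed the threshold and 1 turned. In the Sst line at 60 min Adra2c (0.36 in place of 1.24), Adrb1 (0.23 in place of 0.72), Chrna4 (0.43 in place of 0.93), Adra1d (0.34), Chrm3 (0.28) and Htr1f (-0.79) were among those that missed it. They included Adra1a at both times (-1.45 and -2.18) and Drd5 at 60 min (0.31) in the Camk2a line, and in the Pvalb line Htr1b at 15 min (-1.02).

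**Figure D2:**
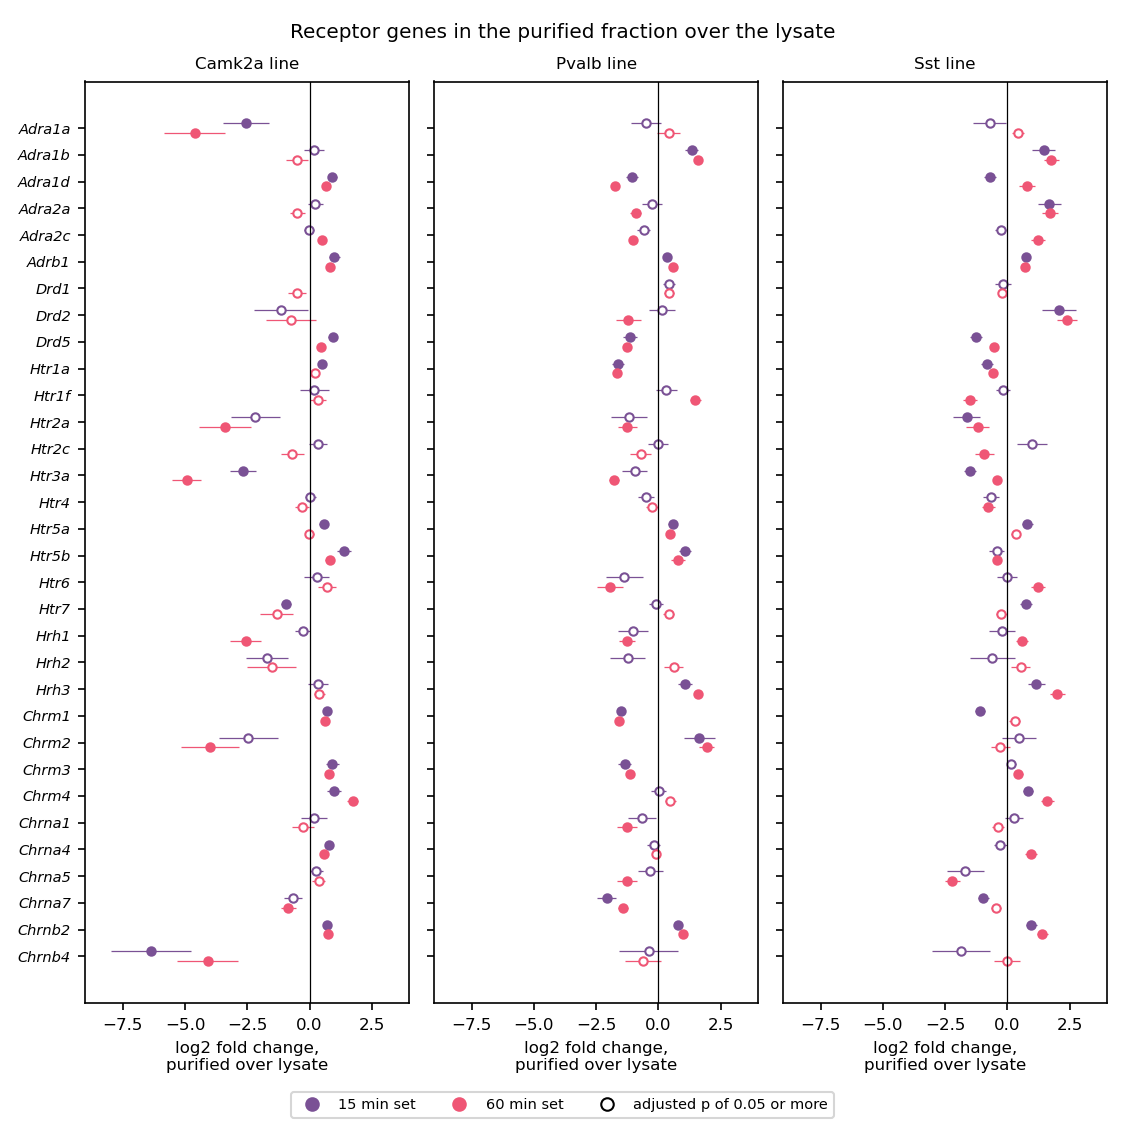
Log2 fold change of the purified fraction over the lysate, with bars of 1 SE, for the reported receptor genes that averaged 1 CPM or more in purified or lysate libraries of at least 4 of the 6 tables; panels are the lines, purple is the 15 min set, pink the 60 min set, and filled points have an adjusted p under 0.05. Chrm1, Chrm3 and Drd5 lie right of 0 in the Camk2a line and left of 0 in the Pvalb line, while Adrb1 and Chrnb2 lie right of 0 in every line.

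Without the deep libraries the Sst line at 60 min had 19 of 48 receptor genes higher and 11 lower in the purified fraction, beside 35.1% and 34.3% of all genes, and Adra1d was at 1.45 ± 0.23. The GC slope, described below, was 0.315 to 0.516 in the deep lysates. Over all lysates of this set it averaged -0.86 in shock, -0.69 in box and -0.59 in home cage, and 0.66, 0.71 and 0.61 in purified libraries. Offsets for GC content were not run without the deep libraries. Leaving out the 9 low-score Sst libraries gave 25 called receptor genes in place of 20 at 15 min and 26 in place of 25 at 60 min. Then Drd2 was higher in the purified Sst fraction by 2.58 and 3.14, Chrna2 by 2.54 and 3.25, Hrh3 by 1.62 and 2.30 and Adra2a by 2.08 and 2.03 at 15 and 60 min, and Adra1d at 60 min was at 0.45 (edgeR adjusted p = 0.307). The counts without low-score libraries, here and between lines, are given without the shares of all genes. They therefore do not tell a change in receptor genes from one in genes at large. With offsets for GC content and length, an alternative added after seeing the data, the Sst contrast at 60 min had 18 called receptor genes beside 40.8% of all genes, and Adra1d (-0.31), Adrb1 (-0.24), Htr1f (0.32) and Htr2c (0.27) changed sign.

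Purified fractions were then compared between lines, over all conditions. At 60 min the Pvalb line had 21 of 48 receptor genes higher and 13 lower than the Camk2a line, where 35.2% and 26.2% of all genes were called. By the smallest p the higher ones were Adra1b (2.38 ± 0.32), Chrm2, Htr3a (3.10 ± 0.49), Hrh3 (1.22 ± 0.20), Adra1a and Chrnb4. Chrm2 averaged 3.75 CPM in the Pvalb line and 0.12 CPM in the Camk2a line. The lower ones were Chrm1 (-2.30 ± 0.12), Chrm3 (-2.10 ± 0.14), Adra1d (-2.53 ± 0.17), Drd5 (-1.81 ± 0.15), Htr1a (-1.74 ± 0.14) and Adra2c (-1.25 ± 0.18). In home cage libraries alone 15 were called, beside 55.1% of all genes. There Adra1a was at 2.23 and did not pass, Hrh3 was at -0.05 ± 0.25 (edgeR adjusted p = 0.877), Hrh1 at -0.78 and Chrnb4 at -0.13. The higher Hrh3 of the Pvalb line at 60 min was thus not seen in this fit. The slope of the log2 level on exon GC content, described below, averaged -0.53 in these Pvalb and 0.64 in these Camk2a libraries (log2 per 10 percentage points). Hrh3 has an exon GC content of 61.8%, and the part of GC content in these home cage values was not tested.

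The Sst line at 60 min had 19 receptor genes higher and 10 lower than the Camk2a line (31.7% and 23.3% of all genes). Htr3a (4.38), Hrh1 (3.33), the Gq-coupled H1 receptor, Adra2a (1.43 ± 0.29), Adra1b (1.46 ± 0.32), Hrh3 (1.02 ± 0.20) and Chrm2 led the higher ones, the last at 1.29 CPM in the Sst line and 0.12 CPM in the Camk2a line. The lower ones were led by Chrm1 (-1.14), Drd5 (-1.32), Adra1d (-1.13), Chrm3 (-0.81), Htr1a (-0.75) and Htr5b (-1.36). Chrm1, Chrm3, Drd5, Htr1a and Adra1d were thus lower than in the Camk2a line in both interneuron lines. Without the low-score Sst libraries 19 were higher and 8 lower. In home cage libraries alone Hrh1 (1.25), Adra1b (0.95) and Hrh3 (0.54) did not pass.

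Between the interneuron lines at 60 min, 17 receptor genes were higher and 7 lower in the Sst line than in the Pvalb line (27.6% and 24.7% of all genes). The higher ones were led by Chrm1 (1.16), Chrm3 (1.29), Adra1d (1.40), Htr1a (0.99), Adra2c (1.05) and Adra2a (1.55). Drd2 and Chrna2 were also among them: Drd2 averaged 7.47 CPM in the Sst line and 0.987 CPM in the Pvalb line, and Chrna2 averaged 2.12 CPM and 0.202 CPM. The 7 lower ones were Htr1f (-1.57), Chrnb2 (-0.64), Htr5b (-1.09), Adra1b (-0.92), Chrm2 (-1.77), Htr5a (-0.44) and Drd1 (-0.69). In home cage libraries alone Chrnb2 (-0.25), Adra1b (-0.43) and Drd1 (-0.20) did not pass. Without the 5 low-score Sst libraries of this set 16 were higher and 4 lower, with Chrm1 at 0.86, Drd2 at 3.31 and Chrna2 at 4.22, while the calls of Adra1b (-0.58), Chrm2 (-1.27), Htr5a (-0.34), Drd1 (-0.63), Drd5 (0.13), Htr3a (1.0) and Chrna7 (0.66) were lost.

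At 15 min the Pvalb line had 7 of 44 receptor genes higher and 9 lower than the Camk2a line (27.7% and 18.4% of all genes), with Hrh3 (1.90), Adra1b (1.92), Htr3a (1.88), Chrm2 and Adra2c (0.75) among the higher ones and Chrm1 (-1.44), Htr1a (-2.08), Chrm3 (-1.83), Drd5 (-1.77) and Adra1d (-0.96) among the lower. Chrnb4 was at 0.497 CPM in the Pvalb line with no counts in the Camk2a line, Chrna2 at 0.301 and 0.0448 CPM, and Htr1b, called lower, at 0.0624 and 0.462 CPM. With GC and length offsets Adra2c was at -0.37, and in home cage libraries alone Adra2c (0.42), Htr3a (1.11) and Htr1b (-1.78) did not pass. The Sst line had 10 higher and 8 lower than the Camk2a line (25.7% and 13.8%), with Drd2 at 6.45 CPM in the Sst line against 0.327 CPM in the Camk2a line. Chrna2 averaged 1.98 CPM in the Sst line and 0.0448 CPM in the Camk2a line, Chrnb3 1.84 and 0.267 CPM, and Chrm2 2.18 and 0.157 CPM, while Chrnb4 averaged 0.975 CPM in the Sst line and had no counts in the Camk2a line. Adra1b was higher by 1.67 ± 0.46, and Htr5b (-2.10), Drd5 (-1.58), Chrm1 (-0.97), Htr1a (-1.06), Chrna4 (-0.94), Adra1d (-0.80) and Adrb1 (-0.76) were lower. In home cage libraries alone Chrnb3 was at 0.98 in place of 5.79 and did not pass. The Sst line had 3 higher and 3 lower than the Pvalb line (6.47% and 3.90%): Chrm3 (2.06), Chrna7 (1.59) and Htr1a (1.01) were higher, and Htr5b (-1.62), Hrh3 (-1.22) and Drd4 were lower, the last at 0.171 CPM in the Sst line and 0.618 CPM in the Pvalb line. None of these 6 passed in home cage libraries alone. Without the low-score libraries the Sst line had 10 higher and 9 lower than the Camk2a line and 2 higher and 2 lower than the Pvalb line. The lower Chrm1, Drd5, Htr1a and Adra1d of both interneuron lines thus appeared in the 15 min set too.

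The partner genes of these receptors also differed between purified fraction and lysate at 60 min, where 22.2%, 28.0% and 31.2% of all genes were called higher and 35.3%, 32.4% and 28.2% lower in the Camk2a, Pvalb and Sst lines. Of the Ly6 proteins, which bind nicotinic receptors and tune them, Lypd6 and Lypd6b were higher in the purified Pvalb fraction (2.31 and 2.38) and lower in the purified Camk2a fraction (-3.87 and -2.0). Ly6h was higher in the Camk2a line (1.48) and the Sst line (1.91). Of 8 tested nicotinic partner genes 4 were higher and 2 lower in the Camk2a line and likewise in the Pvalb line, and of 9 in the Sst line 5 were higher and 1 lower. Of the genes of transmitter synthesis, transport and breakdown 1 was higher and 12 were lower of 21 in the Camk2a line, 3 and 6 of 22 in the Pvalb line and 4 and 9 of 22 in the Sst line. Their median log2 fold change was -1.68, -0.45 and -0.29 in the 3 lines, beside -0.26, -0.13 and 0.11 over all genes. Th, which makes the dopamine precursor, was higher in the Pvalb line (3.11) and the Sst line (2.71). Gna14, a Gq-class alpha subunit, was higher in the Pvalb line by 3.96 ± 0.27.

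Against the same shares of all genes, 8 of 22 Gs and cAMP genes were higher and 6 lower in the Camk2a line, 8 higher and 10 lower in the Pvalb line, and 13 higher and 4 lower in the Sst line. Gnal, an alpha subunit of the Gs class, was higher by 1.80 ± 0.09 in the Pvalb line. Of 8 Gi and Go genes 4 were higher and 2 lower in the Camk2a line, 1 and 6 in the Pvalb line and 3 and 3 in the Sst line. Of 15 Gq genes 7 were higher and 4 lower in the Camk2a line, 2 and 7 in the Pvalb line and 4 and 3 in the Sst line. Of 5 tested receptor kinase and arrestin genes 1 was higher in the Camk2a line and none lower, 1 was higher and 3 lower in the Pvalb line, and 4 were higher and 1 lower in the Sst line. Arrb1, which uncouples receptors from their G proteins, was higher in both interneuron lines, by 0.96 and 1.48.

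After the shock the clearest differences in receptor genes were in the Pvalb line at 60 min, shock over home cage: 6 of 44 tested genes were higher, where 19.7% of all genes were, and 2 were lower, where 15.3% of all genes were. The receptor genes' share of calls is below that background in both directions. Their median log2 fold change was 0.02, beside -0.06 over all genes. The 6 higher genes were Hrh3, Chrm1, Adra2c, Chrm4, Chrna4 and Adra1b, and the 2 lower ones Htr2c and Chrm2.

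Hrh3 was at a lowest, median and highest of 73.7, 141 and 160 CPM in shock libraries, against 41.4, 51.8 and 64.7 CPM in home cage libraries (n = 6 each). Every shock library was above every home cage library, and Hrh3 rose by 1.22 ± 0.21 (log2, SE, edgeR quasi-likelihood test, adjusted p = 0.000665). Overlap of groups was not counted over all genes, here or in the Sst line below, and 19.7% of all genes rose and 15.3% fell in this contrast. A lack of overlap can therefore not be read as a trait particular to these receptor genes. Chrm1 was at 84.2, 135 and 150 CPM in shock libraries, against 52.3, 66.7 and 82.9 CPM in home cage libraries. Its groups did not overlap either, with the lowest shock library just above the highest home cage library, and it rose by 0.87 ± 0.19 (edgeR adjusted p = 0.00201). Adra1b was at 8.31, 10.4 and 16.9 CPM in shock libraries, against 6.28, 7.17 and 8.0 CPM in home cage libraries. Again the groups did not overlap, and it rose by 0.72 ± 0.21 (edgeR adjusted p = 0.0125).

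Adra2c was at 13.7, 36.4 and 62.5 CPM in shock libraries, against 8.29, 14.0 and 17.3 CPM in home cage libraries. Shock replicates 1 and 2 lay within the home cage range and the other 4 above it, and the gene rose by 1.46 ± 0.34 (edgeR adjusted p = 0.00333). Chrm4 was at 1.33, 9.04 and 13.5 CPM in shock libraries, against 2.37, 3.02 and 4.27 CPM in home cage libraries. Shock replicate 1 lay below every home cage library and the other 5 above every one, with a rise of 1.45 ± 0.38 (edgeR adjusted p = 0.00757). Chrna4 was at 13.4, 20 and 28.5 CPM in shock libraries, against 7.63, 12.2 and 13.8 CPM in home cage libraries. The lowest shock library lay within the home cage range, and it rose by 0.80 ± 0.23 (edgeR adjusted p = 0.0115).

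Htr2c, the Gq-coupled 5-HT2C receptor, was at 1.96, 3.94 and 13.1 CPM in shock libraries, against 17.7, 24.4 and 39.9 CPM in home cage libraries. The groups did not overlap, and Htr2c fell by 2.16 ± 0.52 on the log2 scale (edgeR adjusted p = 0.00465). In box libraries it spread from 3.79 to 59.8 CPM, across both groups. Htr2c is also abundant in the choroid plexus, and the summed choroid plexus markers lay at 35.3 to 5004 CPM in shock, 48.7 to 6265 CPM in box and 41.6 to 5622 CPM in home cage libraries. These wide ranges overlap, and the part of choroid plexus content in the Htr2c values was not tested. Chrm2 was at 0.905, 1.47 and 5.43 CPM in shock libraries, against 2.76, 4.67 and 8.47 CPM in home cage libraries. One shock library, replicate 2, overlapped the home cage range, and Chrm2 fell by 1.27 ± 0.47 (edgeR adjusted p = 0.0418). That call was lost, with adjusted p between 0.0526 and 0.102, in 9 of 16 refits that left out 1 library: home cage replicates 2 and 6 and both unnumbered home cage libraries, and shock replicates 1, 3, 4, 5 and 6.

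**Figure D3:**
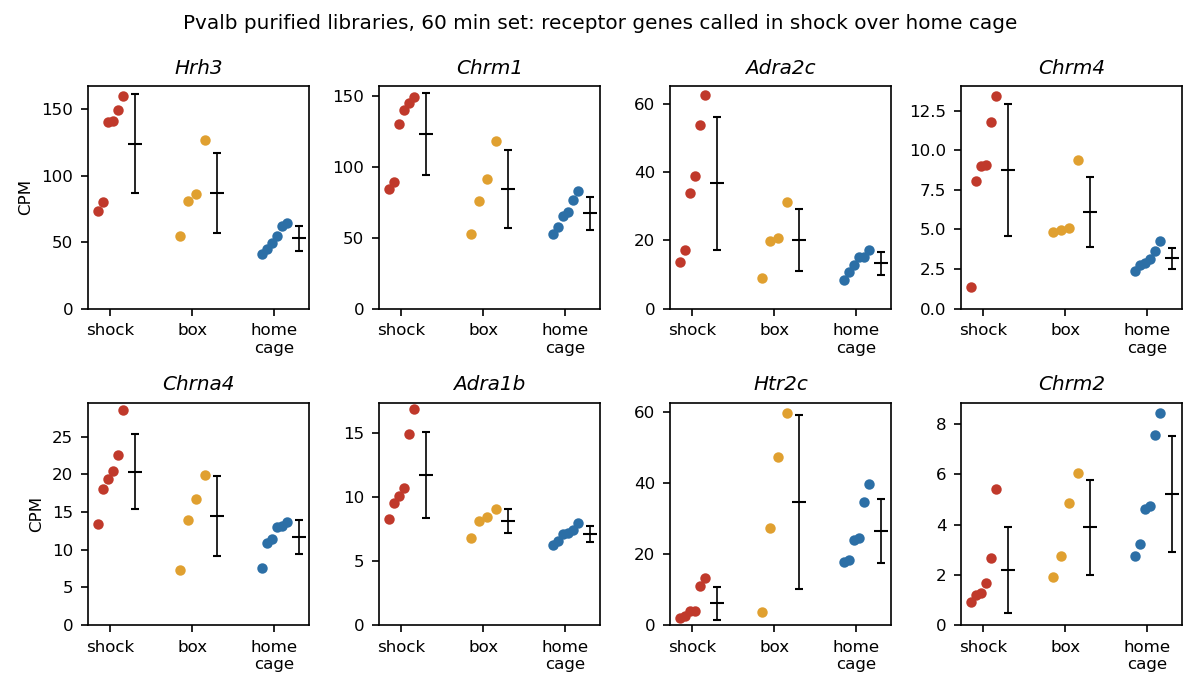
CPM in each purified Pvalb library of the 60 min set for the 8 receptor genes called in shock over home cage; red points are shock, orange box and blue home cage libraries, and black marks show the group mean with 1 SD. Hrh3, Chrm1, Adra1b and Htr2c have no overlap between shock and home cage libraries, and the box libraries of Htr2c run from 3.79 to 59.8 CPM. How many of all genes have no overlap was not counted.

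The GC content of the messages moved with these calls. The slope on exon GC content of the log2 level, taken as its deviation from each gene's mean over all libraries, was 0.39 ± 0.46 in the shock libraries of this set, -0.21 ± 0.34 in box libraries and -0.53 ± 0.10 in home cage libraries (log2 per 10 percentage points of GC, mean ± SD). The 6 genes that rose have exon GC contents of 65.5% (Adra2c), 61.8% (Hrh3), 57.0% (Chrm4), 56.1% (Chrna4), 55.8% (Adra1b) and 54.3% (Chrm1), while those that fell have 42.1% (Chrm2) and 41.7% (Htr2c). With offsets for GC content and length in each library, 1 receptor gene was called beside 8.69% of all genes: Chrm1 at 0.47 (edgeR adjusted p = 0.0237). The other 7 kept their sign with smaller folds, Chrm4 at 0.70, Adra2c at 0.36, Hrh3 at 0.29, Chrna4 at 0.23, Adra1b at 0.20, Htr2c at -1.43 and Chrm2 at -0.64.

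**Figure D4:**
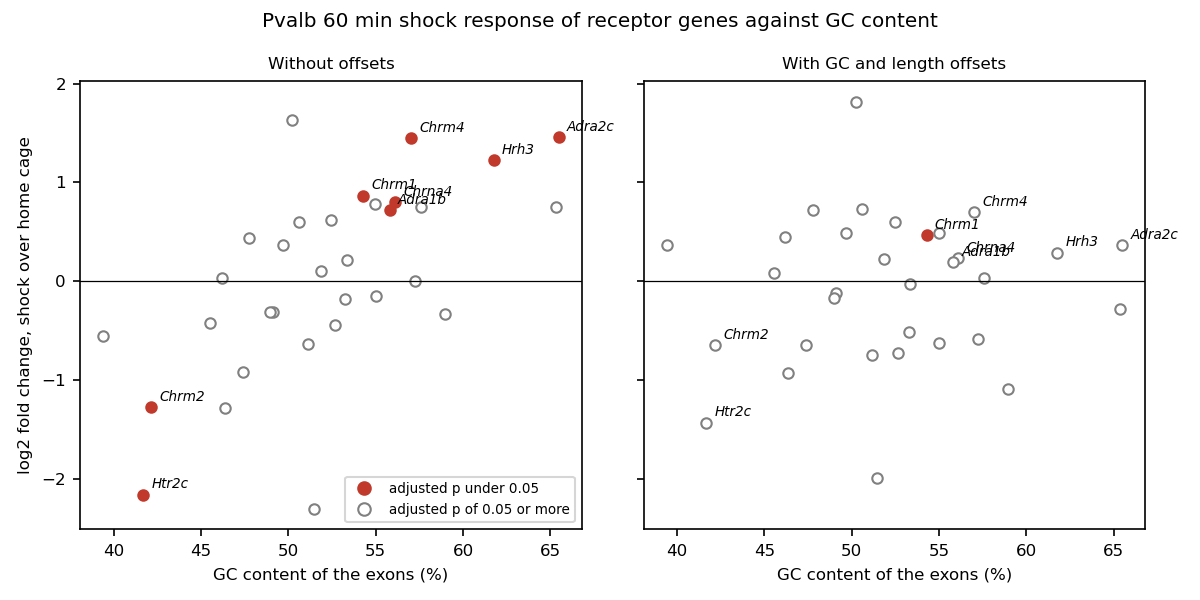
Log2 fold change of shock over home cage in purified Pvalb libraries of the 60 min set against the GC content of each receptor gene's exons, for genes averaging 1 CPM or more in either group, without offsets (left) and with GC and length offsets (right); red points have an adjusted p under 0.05, and the 8 genes called without offsets are named. Left, the named genes that rose have GC contents of 54.3% or more; right, Chrm1 at 0.47 is the red point.

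The bases before a transcript start are shown for 1 gene that rose and the 2 that fell; each sequence is the 250 bases before the transcript start that the RefSeq promoter list uses, on the gene's strand 5′ to 3′, from the mouse build GRCm38.p6, and capitals mark GC boxes, GGGCGG or its reverse complement CCGCCC. Genes can have several starts: RefSeq models of Chrm2 and Htr2c also begin 93 and 49 bases before the ones used, and the GENCODE model of Chrm4 begins further downstream. The windows of Adra2c, Chrna4 and Hrh3 hold 247, 128 and 81 bases of exons of the genes' GENCODE models and are described without their letters, and Chrm1 and Adra1b are named only.
Chrm4 (chr2:91921939-91922188, plus strand): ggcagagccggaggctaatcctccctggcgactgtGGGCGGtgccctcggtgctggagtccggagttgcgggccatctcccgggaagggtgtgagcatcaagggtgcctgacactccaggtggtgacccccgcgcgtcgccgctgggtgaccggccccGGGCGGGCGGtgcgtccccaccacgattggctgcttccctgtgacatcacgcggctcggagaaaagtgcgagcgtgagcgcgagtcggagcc
Chrm2 (chr6:36387834-36388083, plus strand): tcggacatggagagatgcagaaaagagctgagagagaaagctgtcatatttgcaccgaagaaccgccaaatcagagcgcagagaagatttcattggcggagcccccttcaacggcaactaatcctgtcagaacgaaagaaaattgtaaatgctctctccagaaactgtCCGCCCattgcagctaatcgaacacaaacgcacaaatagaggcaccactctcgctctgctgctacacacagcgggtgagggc
Htr2c (chrX:146962263-146962512, plus strand): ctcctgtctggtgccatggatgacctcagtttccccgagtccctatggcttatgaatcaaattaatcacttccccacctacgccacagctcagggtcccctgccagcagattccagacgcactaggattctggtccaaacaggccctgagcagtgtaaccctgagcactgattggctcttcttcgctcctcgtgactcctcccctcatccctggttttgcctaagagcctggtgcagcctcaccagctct
The windows of Hrh3 (80.8% GC), Chrna4 (74.4%) and Chrm4 (70.0%) hold 4, 3 and 3 GC boxes, with overlapping matches counted apart, and that of Adra2c (53.6%) holds 0. Those of the genes that fell, Htr2c (55.6%) and Chrm2 (50%), hold 0 and 1. None of the 6 holds the cAMP response element TGACGTCA or its core TGACG on either strand. Among all 32851 RefSeq promoter windows of this length, 1.55% hold TGACGTCA, 17.8% hold TGACG and 32.7% hold a GC box, and among 49 windows of 40 receptor genes that matched the RefSeq list, 0, 6 and 25 do. The median GC content was 59.6% over the receptor windows and 52.4% over all windows. These matches describe the sequence only.

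In the Sst line at 60 min, shock over home cage, 2 of 46 receptor genes were higher and 0 lower, beside 2.34% and 2.15% of all genes. Adra2c was at 92.2, 65.5, 88.9 and 98.8 CPM in the shock libraries, against 20.6, 26.4, 38.2, 37.4 and 42.6 CPM in the home cage libraries. The groups did not overlap, and Adra2c rose by 1.29 ± 0.25 (log2, SE, edgeR adjusted p = 0.0165). Drd5 was at 13.8, 20.7, 24.9 and 30.8 CPM in the shock libraries, against 8.86, 12.7, 11.0, 11.5 and 7.95 CPM in the home cage libraries. Here too no library of one group reached the other, and Drd5 rose by 1.02 ± 0.25 (edgeR adjusted p = 0.0360). All 4 pairs of same-numbered shock and home cage libraries deviated together (correlations 0.302 to 0.733), and with the replicate number as a block neither call held: Adra2c was at 1.40 (edgeR adjusted p = 0.0633) and Drd5 at 0.91 (edgeR adjusted p = 0.0802). Without the deep libraries Adra2c was at 1.54 ± 0.26 (edgeR adjusted p = 0.0312) and Drd5 at 0.98 ± 0.29 (edgeR adjusted p = 0.154), so that 1 gene was called higher beside 0.733% of all genes.

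Over box, shock again had these 2 genes higher and 0 lower, beside 3.62% and 4.56% of all genes. Drd5 was at 6.25, 8.64, 10.2 and 7.86 CPM in the box libraries, all below the shock libraries, and differed by 1.32 ± 0.26 (edgeR adjusted p = 0.0149). Adra2c was at 54.9, 33.4, 45.0 and 28.0 CPM in the box libraries, also all below the shock libraries, and differed by 0.96 ± 0.27 (edgeR adjusted p = 0.0439). Both contrasts share the same shock libraries. By Y-linked genes 1 of these 4 and 3 of the 5 home cage libraries came from males. With sex as a covariate 1 receptor gene was called over home cage. Without the deep libraries 3 genes were called higher over box, beside 2.05% of all genes: Adra2c (1.16), Drd5 (1.21) and Chrnb4 (2.81, edgeR adjusted p = 0.0431). In the lysates of the same set Adra2c averaged 14.2 CPM in shock, 25.5 CPM in box and 27.2 CPM in home cage libraries, and Drd5 averaged 16.6, 19 and 19.4 CPM. In the 3 deep lysates Adra2c was at 42.0 to 61.6 CPM, and without them it averaged 14.3 CPM in box and 10.9 CPM in home cage lysates, and Drd5 17.8 and 16.2 CPM.

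All 4 shock libraries of this set have low Sst marker content, with own-class scores of -0.64 to 0.01 against 1.34 to 4.21 in box and -0.28 to 4.51 in home cage libraries. Markers of other cells were higher in them. The 7 dentate granule cell markers summed to 444 to 621 CPM in shock, 213 to 342 CPM in box and 223 to 322 CPM in home cage libraries, the 10 oligodendrocyte markers to 7506 to 11400, 2915 to 4845 and 2465 to 5827 CPM, and the 10 astrocyte markers to 5663 to 5797, 2099 to 4092 and 1774 to 4261 CPM. The 12 pyramidal neuron markers, at 4749 to 7069 CPM in shock, 3157 to 6305 CPM in box and 3301 to 7689 CPM in home cage libraries, overlapped, and all of these markers were detected. Their part in the higher Adra2c and Drd5 was not tested beyond the score as a covariate, with which 1 receptor gene was called over home cage and 0 over box.

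Drd2 and Chrna2, both higher in the purified Sst fraction than in the lysate, had lower means in these shock libraries without passing the threshold: Drd2 was at 2.71 ± 1.69 CPM in shock and 9.25 ± 4.95 CPM in home cage libraries (-1.88, edgeR adjusted p = 0.0735), and Chrna2 at 0.741 ± 0.501 and 2.45 ± 2.53 CPM (-1.86, adjusted p = 0.208). Without the deep libraries the home cage means were 6.43 CPM of Drd2 and 1.33 CPM of Chrna2. A comparison without the low-score libraries could not be fitted, since it leaves no shock library. Leaving out 1 library ended the call of Drd5 over home cage in 7 refits (home cage 1, 3, 4 and 5, shock 2, 3 and 4, adjusted p 0.0503 to 0.129) and that of Adra2c only without shock replicate 4 (adjusted p = 0.0641). Over box it ended the call of Adra2c in 10 of 13 places and that of Drd5 without box replicate 4 or shock replicate 4.

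**Figure D5:**
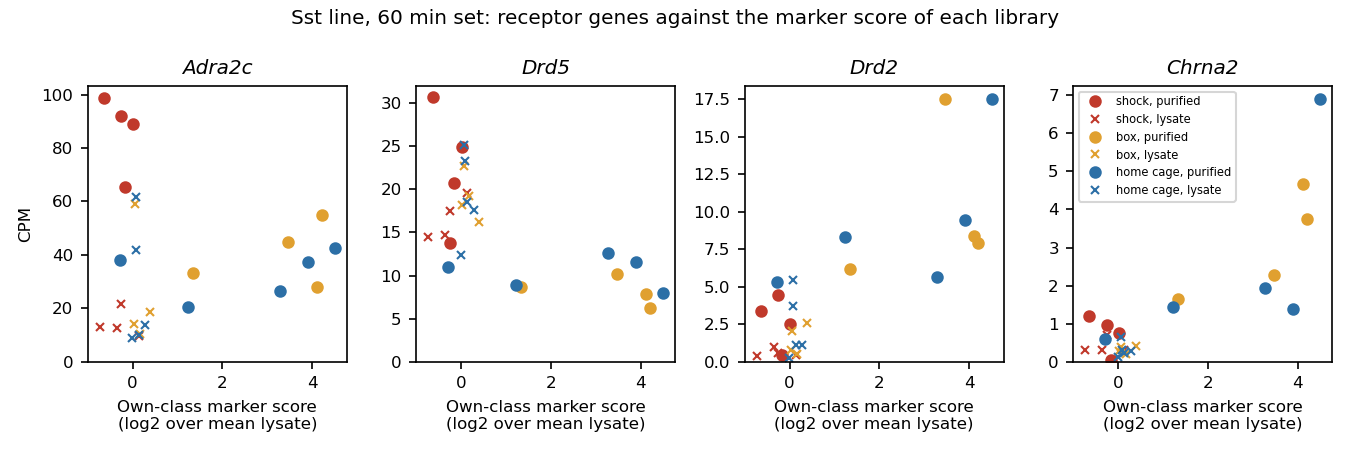
CPM of Adra2c, Drd5, Drd2 and Chrna2 in each Sst library of the 60 min set against the library's own-class marker score (log2 over the mean lysate); circles are purified libraries, crosses lysates, and red, orange and blue mark shock, box and home cage. The purified shock libraries lie at scores of -0.64 to 0.01 with Adra2c at 65.5 to 98.8 CPM, above every box and home cage library.

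No receptor gene was called in the other purified contrasts (edgeR quasi-likelihood test), where none or few of all genes were. Here and below, shares of all genes are those called by edgeR at an adjusted p under 0.05. Counts at an unadjusted p under 0.05 and counts by DESeq2 have no matching share of all genes. They therefore do not tell receptor genes from genes at large. In the Camk2a line at 15 min 0 of 37 were called, beside 0% of all genes in each contrast, and 2, 2 and 0 had an unadjusted p under 0.05 for box over home cage, shock over box and shock over home cage. DESeq2 called 0 in each. The smallest p belonged to Adra2a in the first and second of these (-1.63 and 1.23) and to Adra1a, an alpha1 receptor, in the third. In the Camk2a line at 60 min 0 of 38 were called by edgeR in the same 3 contrasts, beside 0%, 0% and 2.30% of all genes, with 2, 2 and 5 at an unadjusted p under 0.05, and DESeq2 called 0, 0 and 3. Shock over home cage came nearest, with Chrna4 at 15.5 ± 4.98 CPM in shock and 30.4 ± 7.24 CPM in home cage libraries (-0.92 ± 0.24, adjusted p = 0.0514), Hrh3 at 20.7 ± 14.2 and 49.5 ± 10.7 CPM (-1.22, adjusted p = 0.0585) and Adra2c at -0.60 (adjusted p = 0.0748). These 3 are genes that rose in the Pvalb line, and here their values were on the other side of 0; the GC slopes of this set run the other way as well, at 0.06 ± 0.28 in shock and 0.64 ± 0.13 in home cage libraries. By Y-linked genes 1 of 5 purified shock and 3 of 4 purified home cage libraries of this set came from males, so sex and shock are partly confounded here. The smallest p of the other contrasts of this set belonged to Hrh1 in box over home cage and to Adra1d in shock over box (-0.53).

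In the Pvalb line at 15 min 0 of 40 were called in each contrast by edgeR, beside 0% of all genes, with 0, 6 and 5 at an unadjusted p under 0.05 and 0, 1 and 1 called by DESeq2. Hrh3 had the smallest p in shock over home cage, at 193 ± 69.6 CPM in shock and 87.0 ± 24.4 CPM in home cage libraries (1.03 ± 0.23, adjusted p = 0.239), and in shock over box (0.85, adjusted p = 0.222). Chrna3, an alpha subunit, had it in box over home cage. At 60 min in the Pvalb line box over home cage and shock over box had 0 of 44 called by edgeR beside 0% of all genes, with 2 and 6 at an unadjusted p under 0.05 and 0 and 1 by DESeq2. Hrh3 had the smallest p of box over home cage (0.68, adjusted p = 0.366) and Htr2c that of shock over box (-2.52, adjusted p = 0.171). The box libraries of Hrh3 lay between 54.6 and 127 CPM, across the space between the shock and home cage groups.

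In the Sst line at 15 min 0 of 44 were called by edgeR, beside 0%, 0% and 1.21% of all genes, with 2, 4 and 10 at an unadjusted p under 0.05 and 0, 0 and 4 called by DESeq2. Adra1d came nearest in shock over home cage, at 17.4 ± 7.13 CPM in shock and 3.12 ± 2.68 CPM in home cage libraries (2.39, adjusted p = 0.0524). Of those 5 shock libraries 3 have scores under 1, and replicate 2, at 1.09, lies just above that cut. The part of Sst marker content in this difference was not tested. Adra2c had the smallest p in box over home cage (1.32) and Drd4, the Gi-coupled D4 receptor, in shock over box. At 60 min box over home cage had 0 of 46 called by edgeR, beside 0% of all genes, with 0 at an unadjusted p under 0.05 and 0 by DESeq2, and Drd1 had the smallest p (-0.39).

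In the lysates, fitted over all 3 lines, no receptor gene was called at either time by edgeR or by DESeq2. At 15 min 42 were tested, and 0.0128%, 0% and 0.128% of all genes were called for box over home cage, shock over box and shock over home cage. An unadjusted p under 0.05 was found for 3, 0 and 1 of the receptor genes. Htr5a led both comparisons over home cage (0.43 and 0.35) and Htr2c that over box (-0.65). At 60 min 44 were tested, and 0% of all genes were called in each contrast. An unadjusted p under 0.05 was found for 0, 1 and 3 of the receptor genes. The smallest p belonged to Htr7, Chrna3 and Hrh1 (-0.74).

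Whether the shock response differed between times was tested within each line, as the response at 60 min minus that at 15 min. No receptor gene of 40 in the Camk2a line, 46 in the Pvalb line and 48 in the Sst line passed in edgeR. Of all genes 5.71%, 0% and 0% were called. An unadjusted p under 0.05 was found for 5, 3 and 10 receptor genes, and DESeq2 called 2, 1 and 2. These counts have no matching share of all genes. The smallest p belonged to Adra2c in the Camk2a line (-1.08, adjusted p = 0.0725), Htr2c in the Pvalb line (-2.17, adjusted p = 0.488) and Drd4 in the Sst line.

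Whether the response differed between lines was tested as a difference of shock over home cage responses. At 15 min no receptor gene of 44 passed in edgeR for Pvalb minus Camk2a, Sst minus Camk2a and Sst minus Pvalb. Of all genes 0.00609%, 0.31% and 0.0791% were called. An unadjusted p under 0.05 was found for 2, 5 and 5 receptor genes, and DESeq2 called 2, 3 and 1. At 60 min, Pvalb minus Camk2a, 9 of 48 were higher and 5 lower, beside 20.8% and 16.8% of all genes. Hrh3 differed by 2.43 ± 0.44, Adra2c by 2.04 ± 0.41, Chrm4 by 1.90 ± 0.53, Chrna4 by 1.72 ± 0.34 and Chrm1 by 1.12 ± 0.28, and Htr2c by -2.39 ± 0.83. Adra1b (1.95), Hrh1 (3.25), Adra1d (1.07), Chrnb4, Htr3a (-3.05), Htr1f (-1.67), Htr2a (-5.99) and Htr1a (-0.86) made up the rest. Htr2a rests on 1 library, Camk2a shock replicate 1 with 2.60 CPM, while the other shock libraries of that line had no counts, and without it the difference was 2.95 (edgeR adjusted p = 0.287). Leaving out 1 library ended the call of Htr2a in 5 of 41 refits, of Adra1d in 6, of Htr1a in 5, of Adra1b and Htr1f in 2 each and of Htr2c in 1. Under GC and length offsets 3 were called, beside 9.85% of all genes, and Adra1d was at -0.41.

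Sst minus Camk2a at 60 min had 3 of 48 higher and 0 lower, beside 1.88% and 2.98% of all genes: Adra2c (1.84 ± 0.44), Chrna4 (1.37 ± 0.36) and Adrb1 (0.89 ± 0.27). Leaving out 1 library ended the call of Adrb1 in 18 of 41 refits (edgeR adjusted p 0.0502 to 0.164) and that of Chrna4 in 4, namely without Camk2a home cage replicate 2 (1.21) or 4 (1.23) or Sst shock replicate 1 (1.18) or 3 (1.29). With GC and length offsets 1 was called, beside 4.76% of all genes. With the replicate number as a block, which leaves out 2 unnumbered Pvalb home cage libraries, 1 was called beside 5.07% of all genes: Adra2c was at 1.82, while Chrna4 (1.19, edgeR adjusted p = 0.0667) and Adrb1 (0.73, edgeR adjusted p = 0.195) did not pass. Sst minus Pvalb had 4 higher and 4 lower, beside 4.70% and 13.5%: Drd5 (1.43 ± 0.33), Htr2c (3.02 ± 0.81), Htr4 (2.64 ± 0.78), the Gs-coupled 5-HT4 receptor, and Adrb1 (0.71 ± 0.25) were higher, and Hrh3 (-1.71 ± 0.44), Chrm4 (-1.96 ± 0.53), Chrnb2 (-0.96 ± 0.33) and Htr2b, which averaged 0.0648 CPM in the Sst line and 0.00322 CPM in the Pvalb line, were lower. Here leaving out 1 library ended the call of Adrb1 in 20 of 41 refits (edgeR adjusted p 0.0502 to 0.143), of Chrnb2 in 7 (-0.94 to -0.67), of Htr2b in 4 and of Htr2c and Htr4 in 1 each. With the block 5 were called beside 11.7% of all genes, namely Drd5 (1.33), Htr2c (2.39), Hrh3 (-1.40), Chrm4 (-1.93) and also Htr1a, while Adrb1 (0.63), Chrnb2 (-0.75), Htr4 (2.01) and Htr2b did not pass (edgeR adjusted p 0.154 to 0.404). Under the GC and length offsets 7 of the 8 passed beside 13.9% of all genes, and Hrh3 was at -0.99 (edgeR adjusted p = 0.0716). Without the deep libraries 2 genes were called for Sst minus Camk2a, Adra2c (2.11) and Chrna4 (1.39), and 3 for Sst minus Pvalb, Drd5 (1.40), Htr2c (3.09) and Htr4 (2.65), beside 0.961% and 3.18% of all genes higher, while Hrh3 (-1.22), Chrm4 (-1.62) and Chrnb2 (-0.53) no longer passed. The 4 low-score Sst shock libraries enter both of these differences, and the part of Sst marker content in them was not tested.

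Partner genes of the receptors were read in the Pvalb line at 60 min, shock over home cage, against the all-gene median of -0.06 and beside 19.7% of all genes that rose and 15.3% that fell. Of 19 tested genes of transmitter synthesis, transport and breakdown 3 rose and 6 fell, with a median of -0.89. Among them Ache, which breaks down acetylcholine (1.17), and Th, the rate-limiting enzyme of catecholamine synthesis (0.98), rose, and Slc18a2, the vesicular monoamine transporter (-1.24), Hnmt, which breaks down histamine (-0.94), and Maob, a monoamine oxidase (-1.50), fell. Of 8 nicotinic partners 3 rose (Ly6h 1.24, Lynx1 0.85, Ly6e 0.42) and Ric3, a nicotinic chaperone, fell (-0.49), with a median of 0.37. Of 22 Gs and cAMP genes 8 rose, among them Adcy5 (1.07), Adcy6 (1.35), both adenylyl cyclases, and Prkar1b (0.73), and 2 fell (Gnal -0.51, Prkar2b -0.82), with a median of 0.23.

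Of 8 Gi and Go genes 3 rose (Kcnj9, a G protein-gated potassium channel, 1.16, Gnaz 1.13, Gnai2 0.88) and 3 fell (Gnai3 -0.89, Gnai1 -0.68, Kcnj3 -0.73), with a median of -0.32. Of 15 Gq genes 1 rose (Gna11 0.83) and 5 fell, led by Itpr1 (-0.62), Gnaq (-0.73) and Plcb1 (-0.66), with a median of -0.33. Of 5 receptor kinase and arrestin genes 3 rose (Arrb1 0.70, Arrb2 0.64, Grk6 0.64) and none fell, with a median of 0.64. With GC and length offsets, where 8.69% of all genes were called in either direction, the calls in these lists came to 1 higher and 1 lower (transmitter genes), 1 and 0 (nicotinic partners), 2 and 0 (Gs), 1 and 0 (Gi and Go), 0 and 0 (Gq) and 1 and 0 (kinases and arrestins). Maob (-1.0), Ly6h (0.39), Gnaz (0.56) and Arrb1 (0.40) were among the genes that still passed.

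In the Sst line at 60 min, shock over home cage, the same lists had few calls, beside 2.34% and 2.15% of all genes higher and lower: Ache (-1.65) of 21 transmitter genes, Ly6h (-1.16) of 9 nicotinic partners and 4 lower of 22 Gs genes, led by Gnal (-1.09), Adcy7 (-1.76) and Prkar1a (-0.67), and none in the other 3. Ache and Ly6h are among the genes that were higher in the purified Sst fraction than in the lysate. The shock libraries of this set lack the Sst enrichment that their label names. These calls come from the fit without a replicate block. With that block 0.0491% of all genes were called in this contrast, and the lists were not read there. In the Camk2a line at 60 min Hnmt (0.96) and Gnaq (0.73) rose, Grk6 (-0.71) fell, and no other gene of the 6 lists passed, beside 2.30% of all genes.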

How the data were processed

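Polyadenylated RNA of purified ribosome-bound fractions and total lysates was sequenced from libraries made with the Nextera XT kit, per the labels' protocols; strand is lost with this kit, so a gene and an antisense or overlapping neighbour share their reads in such counts. The authors deposited unnormalised whole-number read counts by gene symbol, in 6 tables, 1 for each line and time set. The tools STAR 2.7.7a, featureCounts and DESeq2 and the mouse build GRCm38 are named, per the submitters' processing notes, without their roles. The annotation and the treatment of reads that fit several genes are not given in the sources used here. Of 151 columns analysed, 3 had names that fix their group alone, and these entered as unnumbered replicates; 2 of 153 labelled samples with no matched column are not analysed here. No pair of libraries in a group agreed within sampling noise (smallest reduced chi-square 20.6).

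The receptor genes, the partner lists and the marker lists were chosen with earlier results of these data known. The count test was edgeR 4.0.16 (R 4.3.3) with its low-count filter filterByExpr, TMM scaling and robust quasi-likelihood fits; p-values were adjusted by Benjamini-Hochberg over every tested gene, with 0.05 as the threshold. Conditions were compared among the purified libraries of a table, all 3 in the same fit; fractions were compared over all conditions of a table; lines and differences of responses were fitted over the tables of 1 time set or line; lysates were fitted over the 3 lines with line as a covariate. CPM is the count scaled to the library's total, and CPM per kb divides it by the GENCODE exon length on GRCm38, which for Chrm4 is the coding part alone; 93.1% of genes had a length. The procedure was tested on simulated data. In each contrast the text names every receptor gene past the threshold, or, above 12, the 6 higher and the 6 lower with the smallest p, or the gene with the smallest p where none passed, arranged by family and with further members for context. For levels it names the leading 3 genes of a line and the leading gene of each family, and of each partner list up to 3 genes a direction. A few genes that this rule would name are counted but not reported here. Same-numbered purified libraries of Sst shock and home cage at 60 min were taken as paired, since all 4 pairs deviated together from their group means with correlations above 0.1. Other contrasts of purified libraries did not meet this. In the Pvalb line at 60 min, sex inferred from Y-linked genes differed between purified and lysate libraries numbered 2 and 3, in home cage and in shock. It also differed for shock replicate 2 of the Camk2a line at 60 min and for shock replicate 4 of the Sst line at 15 min. Numbers in these sets may not mark the same animals, so neither the check of pairs nor the replicate block can decide on pairing there.

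Alternatives were DESeq2 1.42.0, its size factors in edgeR, no filter on low counts, the replicate number as a block, offsets for GC content and length (added after seeing the data except in the condition contrasts), the own-class score or sex inferred from Y-linked genes as a covariate, home cage libraries only, no low-score Sst libraries, no deep Sst libraries (added after seeing the data), lysates without 1 line, and leaving out each library in turn. Promoters come from RefSeq on GRCm38.p6, where 40 of the 53 genes matched. Total counts limit precision, and reads without molecular identifiers are not independent molecules.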

Additional observations from a re-analysis of the deposited data

Results flagged for a closer look

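The receptor genes called in a condition contrast gave 30 sets of values in groups of 4 to 6 libraries, of which 1 held a library that stood apart: in the Pvalb line at 60 min, box replicate 3 had 9.40 CPM of Chrm4, while the other 3 box libraries had 4.82 to 5.12 CPM. Chance alone singles out about 1 in 20 such sets.

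At 60 min the shock response over home cage differed between lines in 25 instances by the interaction test of edgeR. Between the Pvalb and Camk2a lines it differed for Hrh3 by 2.43 on the log2 scale, Adra2c by 2.04, Adra1b by 1.95, Chrm4 by 1.90, Chrna4 by 1.72, Chrm1 by 1.12 and Adra1d by 1.07, all higher in the Pvalb line. Hrh1 (3.25) and Chrnb4 (6.90) were also higher, from few counts in the Camk2a line. The response was lower in the Pvalb line for Htr1a (-0.86), Htr1f (-1.67), Htr2c (-2.39), Htr3a (-3.05) and Htr2a (-5.99), the last from counts in 1 shock library of the Camk2a line, without which it was 2.95. With the replicate block Adra1b, Adra1d, Chrnb4, Hrh1, Htr1f and Htr2a did not pass.

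Between the Sst and Camk2a lines it was higher in the Sst line for Adra2c (1.84), Chrna4 (1.37) and Adrb1 (0.89). Between the Sst and Pvalb lines it was higher in the Sst line for Htr2c (3.02), Htr4 (2.64), Drd5 (1.43) and Adrb1 (0.71), and lower for Chrnb2 (-0.96), Hrh3 (-1.71), Chrm4 (-1.96) and Htr2b (-9.52, a value fitted to counts near 0). The Adrb1 calls were lost in 18 and 20 of 41 refits that left out 1 library. With the replicate number as a block the Sst differences for Chrna4 and Adrb1 over Camk2a and for Adrb1, Chrnb2, Htr4 and Htr2b over Pvalb no longer passed. With GC and length offsets 3, 1 and 7 genes were called for Pvalb minus Camk2a, Sst minus Camk2a and Sst minus Pvalb. The part of Sst marker content in these differences was not tested.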

How the results depend on the processing

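Of 361 values recomputed under alternatives, 322 stayed near the reported value and 39 did not. The values were counts of called receptor genes over 45 contrasts, counts of detected receptor genes, and levels of the leading genes. Counts had to lie within 1.5 times the reported count, and levels within their SD. All 39 that moved were counts of called genes, so the moved share is larger among those. Where a recomputed count has no share of all genes beside it, it does not tell a change in receptor genes from one in genes at large. Among 1889 values of single genes, together with the refits that left out 1 library, 17 changed sign. Of these 1 was such a refit, that of Htr2a given below. The cause of these changes was not tested. DESeq2 called 3 genes for shock over home cage in the Camk2a line at 60 min, 4 in the Sst line at 15 min, 7 in the Sst line at 60 min over home cage and 7 over box, 1 in the Pvalb line at 15 min both over box and over home cage, and 1 at 60 min over box. For differences of responses it called 2 (Pvalb minus Camk2a), 3 (Sst minus Camk2a) and 1 (Sst minus Pvalb) at 15 min, 6 at 60 min for Sst minus Camk2a, and 2, 1 and 2 between times in the Camk2a, Pvalb and Sst lines. Without a filter on low counts 1 gene was called for Sst shock over home cage at 15 min and 1 for Sst shock over box at 60 min. With sex as a covariate 1 gene was called for Sst shock over home cage at 15 min and 1 at 60 min. With the own-class score 0 were called for Sst shock over box and 1 over home cage at 60 min.

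With GC and length offsets 1 was called for Pvalb shock over home cage at 60 min, 4 for Sst shock over box at 60 min, and 3 (Pvalb minus Camk2a) and 1 (Sst minus Camk2a) for differences of responses. Replicate numbers pair the purified Sst shock and home cage libraries at 60 min by the correlation of their deviations; over a whole table no kind of pair exceeded 0.1 throughout, though all pairs did in 7 other pairs of groups, of fractions or of lysates. With the replicate block 0 genes were called for Sst shock over home cage at 60 min, 1 for the difference of responses Sst minus Camk2a and 5 for Sst minus Pvalb; of single genes 5 of 12 condition calls, 23 of 123 calls between fractions, 15 of 124 between lines and 12 of 25 differences of responses no longer passed. Without the deep Sst libraries 1 gene was called for Sst shock over home cage at 60 min and 3 for the difference of responses Sst minus Pvalb.

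In home cage libraries alone purified over lysate had 9 called genes in the Camk2a line at 15 min, 9 at 60 min, 6 in the Pvalb line at 15 min, and 10 and 12 in the Sst line at 15 and 60 min. Between lines 5 were called at 15 min for Pvalb over Camk2a, 5 for Sst over Camk2a and 0 for Sst over Pvalb, and at 60 min 15 and 13 over Camk2a. Signs turned there for Chrnb4 in the Camk2a line, purified over lysate, at 60 min (0.040), for Chrnb4 (-0.13), Chrne (-0.072), Hrh1 (-0.78) and Hrh3 (-0.053) in Pvalb over Camk2a, and for Htr1f (0.24) in Sst over Camk2a, all at 60 min. With GC and length offsets they turned for Adra1d (-0.31), Adrb1 (-0.24), Htr1f (0.32) and Htr2c (0.27) in the Sst line, purified over lysate, at 60 min, for Adra2c (-0.37) in Pvalb over Camk2a and Chrm4 (-0.041) in Sst over Camk2a at 15 min, for Htr1f (-0.21) and Htr5a (-0.28) in Pvalb over Camk2a and Chrna4 (-0.16) in Sst over Pvalb at 60 min, and for Adra1d (-0.41) in the difference of responses Pvalb minus Camk2a.

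Leaving out 1 library in turn, the count of called genes ran from 0 to 3 for Camk2a shock over home cage at 60 min, 0 to 1 for Pvalb shock over box at 60 min, 0 to 2 for Sst shock over home cage at 15 min, 0 to 3 for Sst shock over box and 0 to 3 over home cage at 60 min, 1 to 5 for Sst minus Camk2a and 3 to 8 for Sst minus Pvalb responses at 60 min, and 0 to 4 between times in the Camk2a line. Htr2a in Pvalb minus Camk2a ran from -10.2 to 2.95, the last without Camk2a shock replicate 1. Depth limits the 13 genes that never averaged 1 CPM: no difference in them was detectable, or their folds rest on few counts.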
